A study of Mus musculus with 11 samples.

Results

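The transcripts of 7 stress-induced growth arrest genes, Gadd45a, Gadd45b, Gadd45g, Btg1, Btg2, Plk2 and Plk3, were measured by RNA sequencing in gingival epithelium from langerin-DTR mice. They were picked by name from the deposited table, in which 55414 genes are listed and 19170 have values, and all 7 have values in every mouse. The choice was made with the difference between the treatment groups already known for these genes, so that difference is only described: no p-value is given for it, and whether a gene was past the threshold of the fit over all genes is stated as a description. All mice, controls included, carried a diphtheria toxin (DT) receptor driven by langerin, the lectin of Langerhans cells (LCs). In the DT group 6 mice received the toxin and in the PBS group 5 mice received buffer, each at the ages of 17, 24 and 31 days, and tissue was collected at 8 weeks of age. The methods speak of male mice and the reporting summary of both sexes, and the labels give no sex. The receptor marks every langerin-positive cell and not LCs alone, and DT-treated mice without the receptor were not analysed here.

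GADD45 proteins are small acidic proteins that are made after DNA damage and other stresses. They bind PCNA, the CDK1 kinase and MAP3K4, through which they activate the p38 and JNK kinases, and they have been linked to active DNA demethylation. BTG1 and BTG2 are adaptors that bring the CCR4-NOT deadenylase to mRNAs and hold back entry into S phase. PLK2 and PLK3 belong to the polo-like kinases but, unlike the mitotic kinase PLK1, are induced by growth factors, DNA damage and osmotic or oxidative stress. Several of the 7 genes are induced by p53, and Btg2, Gadd45b, Gadd45g, Plk2 and Plk3 can also be induced early after a stimulus, as Fos and Jun are.

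Before the values, the upstream sequences of 5 of the genes are shown, because motifs are often shared between genes that respond to a common stimulus. All 7 genes matched the RefSeq promoter table (build GRCm38.p6), which holds 250 bases before and 50 after each gene's start. The bases printed lie upstream of the RefSeq start and of every annotated exon, are read 5′ to 3′ in the direction of the gene, and have each TGACG or its complement CGTCA in capitals, the core of the cAMP response element (CRE) to which CREB and ATF factors bind.
Btg2, chr1:134079156-134079405, minus strand: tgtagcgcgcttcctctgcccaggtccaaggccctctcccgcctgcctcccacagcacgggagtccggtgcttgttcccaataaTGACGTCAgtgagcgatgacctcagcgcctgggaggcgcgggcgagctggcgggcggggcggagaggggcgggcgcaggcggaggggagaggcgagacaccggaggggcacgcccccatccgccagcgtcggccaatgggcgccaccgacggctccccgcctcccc
Plk2, chr13:110394794-110395043, plus strand: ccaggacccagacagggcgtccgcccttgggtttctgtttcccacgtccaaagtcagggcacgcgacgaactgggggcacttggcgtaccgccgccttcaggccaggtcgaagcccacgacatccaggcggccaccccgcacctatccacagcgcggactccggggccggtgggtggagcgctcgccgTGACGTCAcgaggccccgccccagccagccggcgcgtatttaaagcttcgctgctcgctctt
Plk3, chr4:117133964-117134213, minus strand: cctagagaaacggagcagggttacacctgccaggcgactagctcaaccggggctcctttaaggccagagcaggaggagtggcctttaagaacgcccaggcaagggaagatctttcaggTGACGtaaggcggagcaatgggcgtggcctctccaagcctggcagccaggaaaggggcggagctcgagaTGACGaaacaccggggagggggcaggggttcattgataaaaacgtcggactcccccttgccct
Btg1, chr10:96616751-96617000, plus strand: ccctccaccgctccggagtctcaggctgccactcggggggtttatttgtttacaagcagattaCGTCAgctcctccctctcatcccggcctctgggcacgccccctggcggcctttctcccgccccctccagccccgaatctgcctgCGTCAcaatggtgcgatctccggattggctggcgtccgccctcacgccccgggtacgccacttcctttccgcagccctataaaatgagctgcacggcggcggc
Gadd45g, chr13:51846425-51846674, plus strand: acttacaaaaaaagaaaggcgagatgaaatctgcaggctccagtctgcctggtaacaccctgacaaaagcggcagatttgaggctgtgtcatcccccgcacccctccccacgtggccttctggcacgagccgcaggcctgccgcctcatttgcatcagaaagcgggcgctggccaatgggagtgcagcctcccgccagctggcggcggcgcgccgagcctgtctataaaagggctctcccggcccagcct
The full palindrome TGACGTCA, which holds the core on both strands, was found in 2 of the 7 promoters, at 166 bases before the start of Btg2 and at 62 bases before that of Plk2, and in 1.79% of the 32851 windows of the table. The core TGACG alone was found on either strand in 4 promoters, those of Btg1, Btg2, Plk2 and Plk3, and in 20.8% of all windows. Gadd45g is shown because it has no core in the window but had the largest difference between the groups. A TATA box (TATAAA) lies 27 bases before its start, 26 bases before that of Btg1 and 46 bases before that of Gadd45b, and in 13.6% of all windows. The CCAAT box (CCAAT) was found in 5 of the 7 promoters, all but those of Plk2 and Plk3, and in 37.4% of all windows, and the GC box (GGGCGG) in 6 of the 7, all but that of Gadd45g, and in 35.7%. The AP-1 motif TGANTCA, the CArG box of serum response factor and the NF-kB site, present in 7.81%, 1.63% and 4.51% of windows, were in none of the 7 windows. The decamer of the p53 consensus was present in 8.36% of windows and, among the 7, in that of Gadd45a, 40 bases before the RefSeq start. All motifs were searched on both strands, and a match is a run of letters and not a measured binding site.

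The depth of the libraries lay between 17509327 and 24325514 reads counted on genes with no detectable difference by group (p = 0.496 by exact permutation over 462 splits, two-sided). Keratinocyte markers were abundant in every mouse, with Krt5 between 80136 and 96899 normalized counts (reads divided by a size factor of the mouse). The summed level of 7 T cell markers was at most 91.5 normalized counts, that of 5 skeletal muscle markers at most 47.2 and that of 5 endothelial markers at most 138. On the first principal component, which separates the mice by their largest shared variation, PBS 3 and PBS 5 lay at 17.2 and 20.9, whereas PBS 1, PBS 2 and PBS 4 lay at or below -11.9. The comparison of the groups and the correlations within groups were therefore also run without PBS 3 and PBS 5. All PBS libraries precede all DT libraries in the sample numbering, and whatever went with that order cannot be told apart from the treatment.

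All 7 genes had higher means after DT than after PBS, where 47.3% of all genes had a log2 fold change above 0, with a ratio of means from 1.12 for Btg1 to 2.28 for Gadd45g, and in 5 of them, Gadd45a, Gadd45b, Btg2, Plk2 and Plk3, every DT-treated mouse lay above every PBS-treated mouse. Over all 19170 genes, 0.902% had every DT-treated mouse above every PBS-treated mouse. In a limma fit over all genes on log2(normalized count + 1), 5 of the 7 genes, namely Gadd45a, Gadd45b, Gadd45g, Btg2 and Plk2, were past an adjusted p of 0.1 with higher levels after DT, against 0.313% of all genes in that direction, 0.245% in the other and 0.558% in either. Since the genes were chosen on this difference, nothing is read from these counts. The median log2 fold change of the 7 genes was 0.45, beside -0.011 over all genes. The number of all genes past the threshold was 107 and ranged from 27 without DT 5 to 259 without PBS 5 when single mice were left out.

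**Figure D1:**
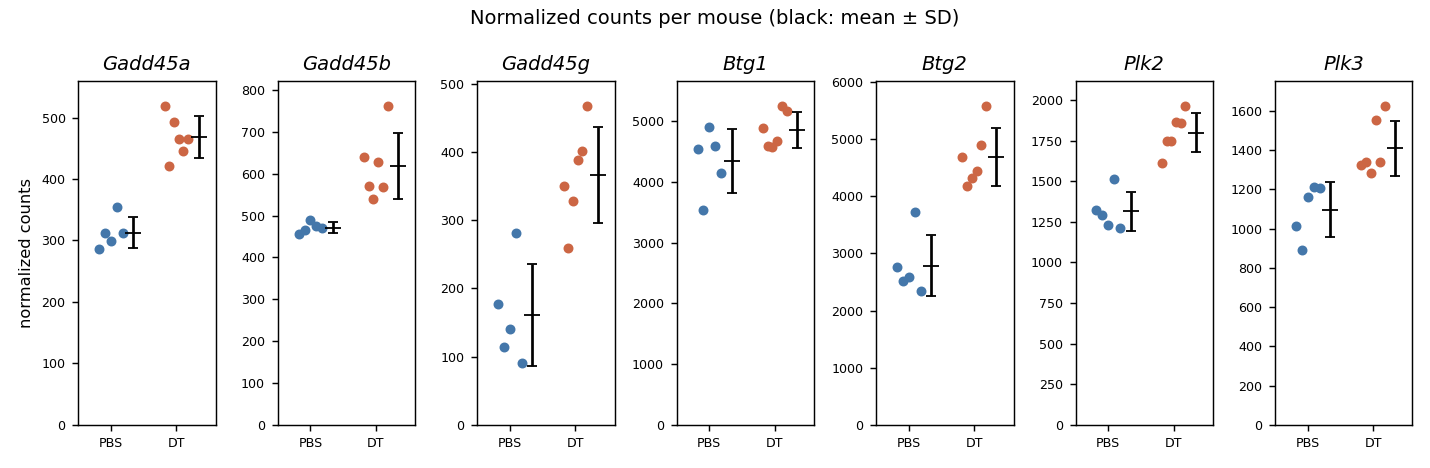
Normalized counts of the 7 genes (vertical axes, each from 0) in the 5 PBS-treated (blue) and 6 DT-treated (orange) mice, one point per mouse, with the mean ± SD in black. The groups are separate for Gadd45a, Gadd45b, Btg2, Plk2 and Plk3 and overlap for Gadd45g and Btg1.

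Among the GADD45 genes, Gadd45a, the best known p53 target of the family, was found at normalized counts of 286, 312, 299, 355 and 313 across PBS 1 to PBS 5. After DT its lowest, median and highest values were 422, 465 and 518. PBS 4 was the highest of the PBS-treated mice and still lay below DT 2, the lowest of the DT-treated mice. The gene lies on chromosome 6 of GRCm38 from 67035096 to 67037457 on the minus strand, and its mean was 313 ± 26.0 in the PBS group (SD, n = 5) against 468 ± 34.2 in the DT group (SD, n = 6), or 0.58 as log2 fold change with a standard error (SE) of 0.071. Its values rest on 253 to 531 reads a mouse, which gives a counting error of at most 6.3%. An antisense transcript, E230016M11Rik, shares 337 exonic bases with Gadd45a and averaged 12.95 normalized counts. Whether the strand was used in counting is not given in the sources used here, so that these reads may be mixed to that extent.

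Gadd45b, which is induced by NF-kB and TGF-β signals in other cells, lies on chromosome 10 from 80930073 to 80932204. Across PBS 1 to PBS 5 its normalized counts were 455, 466, 489.8, 474 and 470.1, the narrowest spread of the 7 genes within a group, with a coefficient of variation of 2.7%. Counting error alone is 5.0% at its lowest count of 402 reads, in PBS 1. The spread after PBS is thus smaller than counting error, and nothing is read from its narrowness. After DT it ranged from 539.9 to 760.5 with a median of 599.6, and the coefficient of variation was 12.9%. DT 6 was the highest mouse, and without it the log2 fold change fell from 0.38 (SE 0.077) to 0.32. With single mice left out, Gadd45b passed the threshold in 6 of 11 fits and did not pass it without PBS 1, PBS 2, DT 1, DT 4 or DT 5.

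Gadd45g, a member of the family known from differentiating cells, lies on chromosome 13 from 51846678 to 51848468. It was the least abundant of the 7 genes and varied most between mice. Its values in PBS 1 to PBS 5 were 177, 114, 141, 281 and 90.2 normalized counts, and after DT it ranged from 259 to 466 with a median of 369. The groups overlapped, since PBS 4 lay above DT 2. The mean was 161 ± 74.8 (SD, n = 5) with PBS and 366 ± 70.6 (SD, n = 6) with DT, which gave a log2 fold change of 1.27 (SE 0.22), between 1.09 without PBS 5 and 1.502 without PBS 4. As few as 86 reads were counted in a mouse, for which counting error alone is 10.8%, well below the coefficient of variation of 46.6% after PBS. The residual SD of Gadd45g on the log2 scale, 0.47, was larger than that of 91.9% of the 13477 genes whose mean reached 10 normalized counts, whereas Gadd45a, at 0.11, exceeded 31.5% of them.

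Of the BTG genes, Btg1 lies on chromosome 10 from 96617006 to 96622809, and PBS 1 to PBS 5 gave normalized counts of 4541, 3532, 4908, 4595 and 4155. After DT it ranged from 4570.2 to 5242 with a median of 4780.3, and PBS 3 and PBS 4 lay above DT 3, the lowest of its group. Its log2 fold change of 0.17 (SE 0.074) was the smallest of the 7 genes and fell to 0.094 without PBS 2, the lowest mouse. With single mice left out, Btg1 passed the threshold in 0 of 11 fits.

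Btg2, a p53 target and an early response gene, lies on chromosome 1 from 134075170 to 134079120 on the minus strand. Across PBS 1 to PBS 5 the normalized counts were 2759, 2525, 2587, 3715 and 2347, and after DT it ranged from 4176 to 5570.0 with a median of 4564. PBS 4 again stood above the other PBS-treated mice without reaching the DT-treated mice, and DT 6 was the highest of the DT-treated mice. The log2 fold change of Btg2 was 0.76 (SE 0.10), between 0.70 without PBS 5 and 0.87 without PBS 4. Expressed as a share of the summed BTG level per kb of transcript, Btg2 made up 53.7% ± 4.33 in the PBS group (SD, n = 5) and 63.7% ± 1.34 in the DT group (SD, n = 6). These shares did not overlap between the groups, at 49.0% to 59.6% and 62.4% to 66.3%. They restate the differences of Btg2 and Btg1, which were known when the genes were chosen, and nothing is read from them. How often other gene pairs separate in this way was not computed.

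Plk2, the stress-induced polo-like kinase that acts in centriole duplication and in neurons, lies on chromosome 13 from 110395046 to 110400844. Its normalized counts across PBS 1 to PBS 5 were 1325, 1295, 1229, 1513.5 and 1214, and it ranged from 1615 to 1961 with a median of 1804.5 after DT. PBS 4 was the highest of the PBS-treated mice and DT 1 the lowest of the DT-treated mice, with no overlap. The log2 fold change was 0.45 (SE 0.064), between 0.43 without PBS 5 and 0.51 without PBS 4. Plk3 lies on chromosome 4 from 117128655 to 117133963 on the minus strand, and its kinase acts in the DNA damage and hypoxia responses. PBS 1 to PBS 5 gave 1014, 892, 1161, 1211 and 1206 normalized counts, and the DT-treated mice 1284 to 1622 with a median of 1338. Its groups did not overlap, but its log2 fold change of 0.37 (SE 0.085) was not past the threshold. With single mice left out it passed in 2 of 11 fits, those without PBS 4 and without PBS 5. The opposite strand holds Tctex1d4, which shares 84 exonic bases with Plk3 and had a mean of 1.8 normalized counts.

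**Figure D2:**
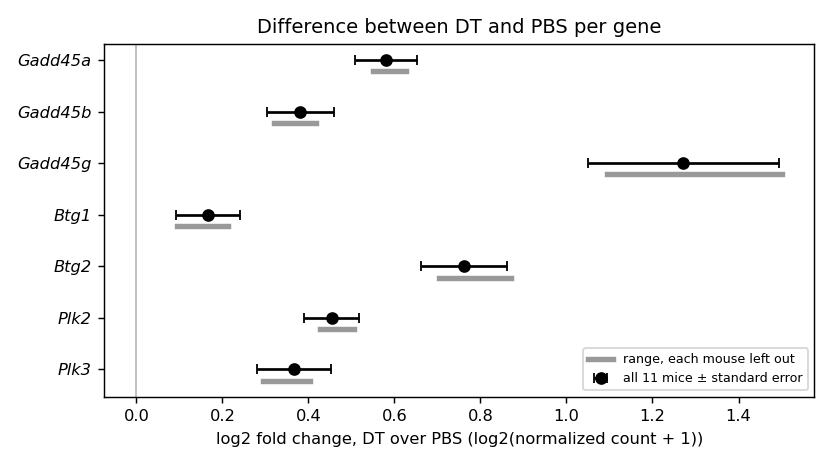
Log2 fold change of DT over PBS for each of the 7 genes on the scale of log2(normalized count + 1) (horizontal axis), with its standard error in the fit of all 11 mice (black) and the range when each mouse was left out in turn (grey). All values lie above 0, from 0.17 for Btg1 to 1.27 for Gadd45g.

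Without PBS 3 and PBS 5, a choice made after seeing the data, all 7 log2 fold changes kept their sign and 6 genes were past the threshold, as against 1967 genes in all. PBS 4 had the highest value of its group in 5 of the 7 genes and the lowest in 0, and DT 6 the highest of its group in 5 of the 7 and the lowest in 0. In contrast, DT 2, DT 3 and PBS 5 each had the lowest value in 3 of the 7 genes. Over deviations from the group means in the 11 mice, the closest of the 21 pairs was Gadd45g with Btg2 (Pearson r = 0.93), followed by Btg2 with Plk2 (r = 0.81) and Gadd45g with Plk2 (r = 0.80). The other pairs lay between -0.038 and 0.59, among them Gadd45a with Gadd45b at 0.14. These r are descriptions, since all genes share the libraries and their size factors.

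It was then asked whether this scatter between mice of the same group went with the immediate early genes, which are transcribed within minutes of a stimulus, or with proliferation. For each mouse a score averaged the log2 values of a list's genes, each centred on the mean of its gene. It was taken over 28 immediate early genes and over 32 proliferation genes, with none of the 7 genes in either list. Both lists were written with earlier results of these data known. The deviations of gene and score from the group means were correlated in the 11 mice, which leaves the difference between DT and PBS out, and tested by all 86400 orders of the mice within groups with Benjamini-Hochberg adjustment over the 14 relations. Btg2 followed the immediate early score closely (Pearson r = 0.98, two-sided exact permutation p = 2.31e-05, adjusted 0.000324), with r = 0.98 within the PBS-treated and 0.99 within the DT-treated mice. Spearman's rho was 0.96 (exact permutation p = 4.63e-05, adjusted 0.000648). Gadd45g also followed it (r = 0.95, exact permutation p = 9.26e-05, adjusted 0.000648; rho = 0.94, exact permutation p = 0.000313, adjusted 0.0022). PBS 4 and PBS 5 had the scores farthest from the rest as deviations from the group mean, at 0.65 and -0.48. Without both, a choice made after seeing the data, r was 0.98 for Btg2 (exact permutation p = 0.000463) and 0.84 for Gadd45g (exact permutation p = 0.0081). The planned choice was to leave out PBS 2 and PBS 5, the mice farthest from the median score. Without these, r was 0.99 for Btg2 (exact permutation p = 0.000463) and 0.92 for Gadd45g (exact permutation p = 0.0019). Both relations remained past an adjusted p of 0.05 in each of the 11 analyses that left out a mouse and without PBS 3 and PBS 5 (r = 0.996 and 0.93).

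For Plk2 the relation with the immediate early score was weaker in rank terms (r = 0.78, exact permutation p = 0.013, adjusted 0.047; rho = 0.61, exact permutation p = 0.067, adjusted 0.188). Without PBS 4 alone r was 0.55 and without PBS 5 alone it was 0.75. Without both it was 0.49 (exact permutation p = 0.273), so that the relation rests mostly on PBS 4. Without the planned pair, PBS 2 and PBS 5, r was 0.76 (exact permutation p = 0.056, not adjusted). It passed in 2 of the 11 analyses that left out a mouse, those without DT 1 and without DT 4. Gadd45a (r = 0.42), Gadd45b (r = 0.37), Btg1 (r = 0.55) and Plk3 (r = 0.32) did not pass, with exact permutation p between 0.114 and 0.437. Whether their r differ from those of Btg2 and Gadd45g was not tested. The rho of Btg1 was 0.72 (exact permutation p = 0.026, adjusted 0.123), and without PBS 4 and PBS 5 its r was 0.65 (exact permutation p = 0.0081, not adjusted).

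**Figure D3:**
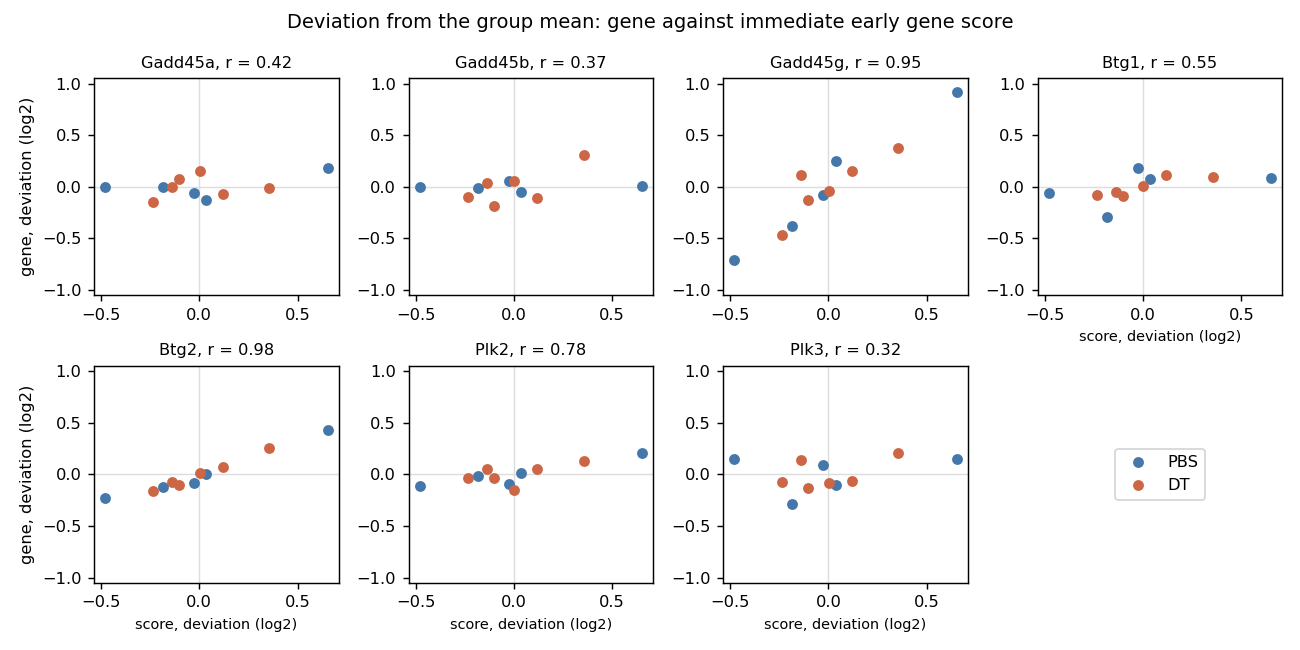
Deviation from the group mean of each gene (vertical axis, log2) against that of the immediate early gene score (horizontal axis, log2) in PBS-treated (blue) and DT-treated (orange) mice, with Pearson's r over the 11 mice in each panel title. Points lie along a line for Btg2 and Gadd45g and scatter for Gadd45a, Gadd45b and Plk3.

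With the proliferation score, the only relation past the threshold was that of Gadd45b (r = 0.63, exact permutation p = 0.013, adjusted 0.047; rho = 0.57, exact permutation p = 0.048, adjusted 0.168). It came from the DT-treated mice, with r = 0.99 within them and 0.035 within the PBS-treated mice. In the latter the spread of Gadd45b was smaller than its counting error. DT 6, which had the highest Gadd45b, also had the highest proliferation score of its group, at 0.154 against -0.178 to -0.033 in the other DT-treated mice. Without DT 6, r was 0.34 and not past the threshold. The relation was past the threshold in 2 of the 11 analyses that left out a mouse, those without PBS 1 and without PBS 4. The planned choice was to leave out PBS 3 and PBS 5, the mice farthest from the median score. Without these, r was 0.71 (exact permutation p = 0.024, adjusted 0.113) and not past the threshold. Without PBS 4 and DT 6, the mice whose proliferation scores deviated most from the group mean, r was 0.54 (exact permutation p = 0.065, not adjusted). Plk3 (r = 0.45) and Btg1 (r = 0.33) did not pass either, although Plk3 did without PBS 4 (r = 0.86), and its r without PBS 4 and DT 6 was 0.83 (exact permutation p = 0.017, not adjusted). For Gadd45a, Gadd45g, Btg2 and Plk2, r with proliferation over both groups was between -0.36 and -0.20, with exact permutation p between 0.315 and 0.642, and no relation was detectable for them at this number of mice. These values join groups of unlike sign, with r within the PBS-treated and the DT-treated mice of -0.76 and 0.81 for Btg2, -0.85 and 0.46 for Plk2, -0.64 and 0.65 for Gadd45g and -0.76 and 0.10 for Gadd45a, and the difference between the groups was not tested. Without PBS 4 the r over both groups was 0.53 for Btg2, 0.34 for Gadd45g and 0.18 for Plk2, none past the threshold.

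The genes whose scatter within groups was most like each member were searched among the 11045 other genes whose mean reached 50 normalized counts. For Btg2 these were Atf3 (r = 0.99) and Klf6 (r = 0.96), and for Gadd45g they were Jun and Egr1 (both r = 0.98). All 4 encode transcription factors of the early response and are in the immediate early list. Their r thus restate in part the relations of Btg2 and Gadd45g with its score. For Plk2 they were Hspa1a (r = 0.95), which encodes an inducible HSP70 chaperone and has a near-identical copy with which it may share reads, and Tmem95 (r = 0.93). The neighbours of the other genes were Bcr (r = 0.90) and Ankrd26 (r = 0.89) for Gadd45a, Nrp2 (r = 0.93) and Runx1 (r = 0.86) for Gadd45b, Palmd and Thsd4 (both r = 0.93) for Btg1, and Ugcg (r = 0.96) and Cttnbp2nl (r = 0.93) for Plk3. These 8 neighbours had log2 fold changes between DT and PBS of -0.11 to 0.095. With 11 mice and this many genes searched, the highest r is large for any gene, and no p is given.

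The values of the immediate early genes between the groups are set beside those of the 7 genes. Of the 28 listed, 15 were past the adjusted p of 0.1 by limma with higher levels after DT, beside 0.313% of all genes, and 0 with lower levels. Their median log2 fold change was 0.64, and 24 of the 28 lay above 0, all but Fosl2, Egr3, Dusp2 and Nr4a3. By the smallest p these were led by Ier2 with a log2 fold change of 0.75, Junb with 0.68 and Dusp1, a MAP kinase phosphatase, with 1.02. The list was written with these differences known, so its counts are a description and support nothing. Its score lay between -0.940 and 0.192 after PBS and between 0.148 and 0.740 after DT, with PBS 4, at 0.192, above DT 2, at 0.148, and below the other DT-treated mice. At this score PBS 4 had more Gadd45g than DT 2, at 281 and 259 normalized counts, and about as much Btg1, at 4595 and 4584, but less Btg2, at 3715 and 4176, less Gadd45a, at 355 and 422, less Gadd45b, at 474 and 571, less Plk2, at 1513.5 and 1747, and less Plk3, at 1211 and 1337. Each comparison is of single mice, and their scores were not equal. For Btg2, Gadd45a, Gadd45b, Plk2 and Plk3 the order was fixed beforehand, since every PBS-treated mouse lay below every DT-treated mouse. Nothing is read from it. The part of the immediate early genes in the difference between DT and PBS of the 7 genes was not tested.

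Levels between genes were compared per length, as normalized counts per kb of the longest transcript in GENCODE M21, over all 11 mice. Btg2 was the most abundant at 1393 ± 404 (SD, n = 11), followed by Btg1 at 924 ± 94.9, Plk2 at 564 ± 99.1, Plk3 at 505 ± 83.9, Gadd45b at 429 ± 74.3, Gadd45a at 325 ± 70.5 and Gadd45g at 254 ± 119. Each neighbouring pair in this order differed within mice by an exact permutation test over sign flips. The adjusted p of this test lay between 0.0029 and 0.011 over the 6 pairs. The order was taken from the same values that were tested. The test also pools the groups, whose difference was known when the genes were chosen, so it holds for the pooled mice and not for each group. Btg1 lay above Plk2 and Gadd45b above Gadd45a in 11 of 11 mice, for which p = 0.000977 by exact permutation is the smallest possible. Btg2 lay above Btg1 in 10 of 11 mice, Plk3 above Gadd45b in 10, and Plk2 above Plk3 and Gadd45a above Gadd45g in 9 each. The groups differed in how far neighbours lay apart: Btg2 and Btg1 were at 1016 and 869 per kb after PBS and at 1708 and 971 after DT, and Gadd45a and Gadd45g at 256 and 149.9 after PBS and at 383 and 341 after DT. Btg2 lay above Btg1 in 4 of 5 PBS-treated and 6 of 6 DT-treated mice, Plk2 above Plk3 in 3 of 5 and 6 of 6, and Gadd45a above Gadd45g in 5 of 5 and 4 of 6. The order depends on the length used. With the merged length of all exons, Plk3 came before Plk2 and Gadd45g before Gadd45a, and 4 of the 6 neighbouring pairs of that order were past the threshold. Without division by length Btg1 came before Btg2.

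**Figure D4:**
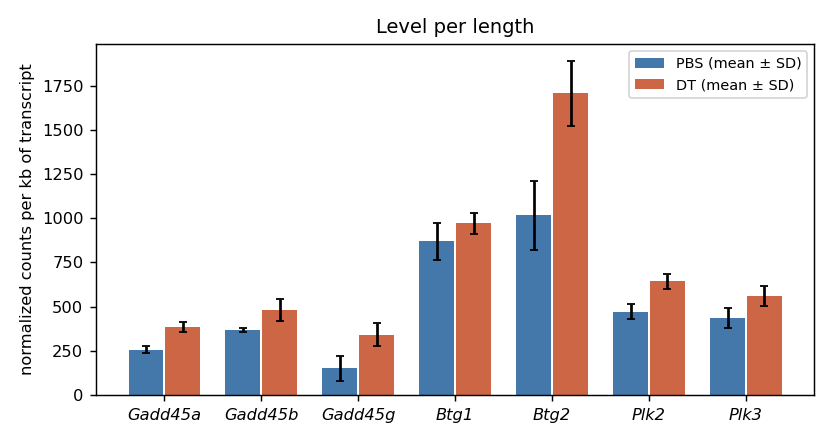
Level of each gene as normalized counts per kb of its longest annotated transcript (vertical axis, from 0), as mean ± SD over 5 PBS-treated (blue) and 6 DT-treated (orange) mice. The BTG genes stand highest and Gadd45g lowest in the PBS-treated mice.

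The remaining genes of the families and the pathways around them were taken from 7 lists. Of 7 paralogs, 6 have values and 0 passed the adjusted p of 0.1 by limma, although 4 had an unadjusted p under 0.05, beside 11.5% of all genes. Tob1, Tob2 and Btg3, which like BTG1 and BTG2 bind the deadenylase, had log2 fold changes of 0.25 (SE 0.077), 0.14 (0.056) and 0.13 (0.058). Tob1 stood at 2467 ± 290 normalized counts in the PBS group (SD, n = 5) and 2928 ± 276 in the DT group (SD, n = 6), with overlap between the groups. The mitotic kinase gene Plk1 and Plk4, the kinase of centriole duplication, had log2 fold changes of -0.064 and -0.065, each smaller than its SE of 0.084. Plk5 was near the lower end of expression, between 10.1 and 47.2 normalized counts, with a log2 fold change of -0.77 (SE 0.28).

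Among the partners and effectors, 0 genes passed the adjusted p of 0.1 in any of the other 6 lists. Of the 16 GADD45 partners and MAP kinases, 1 had an unadjusted p under 0.05 by limma, Map2k6, a kinase that activates p38, with a log2 fold change of -0.30, and the median of the list was -0.024. Cdkn1a, which encodes p21, the cell cycle inhibitor that p53 induces, stood at 6193 ± 850 normalized counts in the PBS group (SD, n = 5) and 6020.5 ± 432 in the DT group (SD, n = 6), with a log2 fold change of -0.033 (SE 0.081). The 12 DNA demethylation partners with values had a median of -0.058, with 4 at an unadjusted p under 0.05 by limma (11.5% of all genes) and Tet3, a dioxygenase of 5-methylcytosine, at -0.18. In the list of CCR4-NOT, poly(A) binding proteins and PRMT1, 2 of 16 genes had an unadjusted p under 0.05 by limma, and the deadenylase subunit gene Cnot6l, at 1929 ± 115 (SD, n = 5) and 1697 ± 72.2 (SD, n = 6) normalized counts, was lower in every DT-treated than in any PBS-treated mouse, with a log2 fold change of -0.18. Over all genes 0.751% had every DT-treated mouse below every PBS-treated mouse. The polo kinase partners had a median of -0.069, with Aurka, the kinase that activates PLK1, at 0.26, and 1 of 16 at an unadjusted p under 0.05 by limma.

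Of the 11 cyclin-dependent kinase inhibitors and pocket proteins, 0 reached an unadjusted p under 0.05 by limma, with a median of 0.0038, and the smallest p was that of Cdkn1b, at -0.17. Among the 18 upstream transcription factors and regulators with values, 5 had an unadjusted p under 0.05 by limma, beside 11.5% of all genes, with a median of 0.0017. Ddit3, the stress factor CHOP, had the smallest p, with a log2 fold change of -0.47 (SE 0.13), Trp53 had 0.12 (0.063) and Mdm2, a p53 target that limits p53, had 0.15 (0.054). Mdm2, Trp53 and Cdkn1a were singled out after their values were seen. In the proliferation list 2 of 32 genes had a log2 fold change above 0, beside 47.3% of all genes. Of the 32, 0 passed the adjusted p of 0.1 and 5 had an unadjusted p under 0.05 by limma, against 11.5% of all genes. Aurka, also in this list, was among these 5 and was higher after DT, with a log2 fold change of 0.26. Mki67, the usual mark of cycling cells, stood at 4161 ± 441 (SD, n = 5) and 3360.0 ± 394 (SD, n = 6) in normalized counts, with a log2 fold change of -0.31 (SE 0.084).

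**Figure D5:**
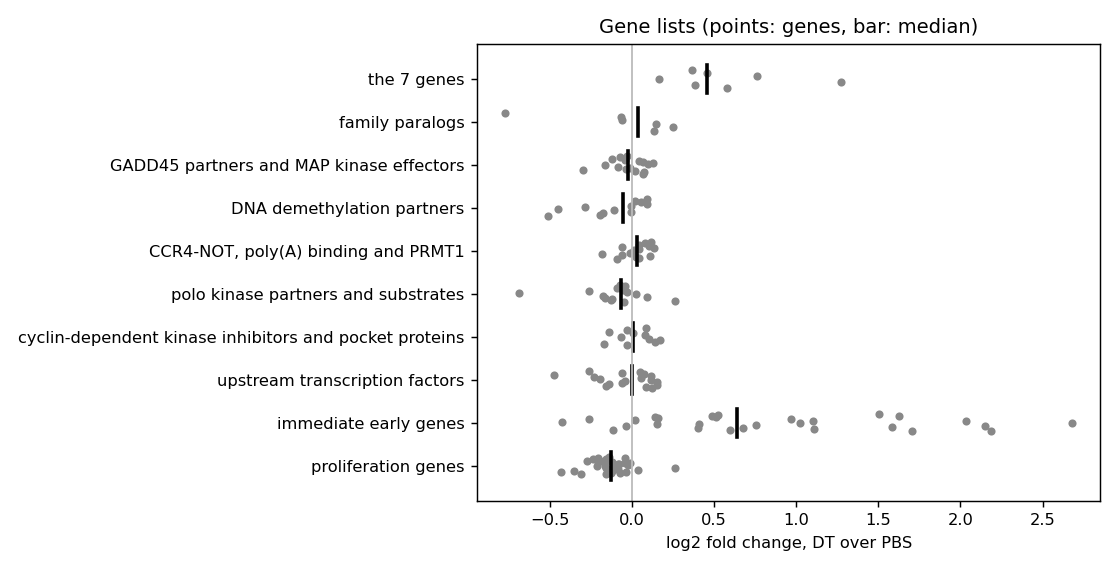
Log2 fold change of DT over PBS (horizontal axis) for every gene with values in each list, one point per gene, with the median of the list as a bar. The 7 genes (median 0.45) and the immediate early genes (0.64) lie to the right of 0, whereas the medians of the other lists lie between -0.13 and 0.035.

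In bulk epithelium fewer cells of a type and less RNA per cell cannot be told apart, and the markers of other cells are given for that reason. Of the 7 markers of LCs and other antigen-presenting cells, 7 of 7 had a lower mean log2 value after DT and 0 passed the adjusted p of 0.1, with 3 at an unadjusted p under 0.05 by limma. Over all genes 11.5% had such a p, and 47.3% had a log2 fold change above 0. Their summed level was 1628 to 4228 normalized counts after PBS (median 2133), with the maximum in PBS 3, and 1093 to 2340.3 after DT (median 1815). The PBS median thus lay within the range of the DT group. These sums were not computed without PBS 3 and PBS 5. Cd207, which encodes langerin, lay between 10.0 and 43.0 normalized counts over all mice. Its mean was 23.9 ± 13.4 in the PBS group (SD, n = 5) and 18.4 ± 1.99 in the DT group (SD, n = 6). The log2 fold change of Cd207 was -0.19 (SE 0.30). Since the paper reports that LCs had returned by the age of sampling, these marker values do not measure the earlier depletion. The summed level of 6 fibroblast markers was 1252 to 1450 after PBS and 1109 to 1594 after DT. Most of it came from Dcn, with means of 1174 and 1259 normalized counts, while Col1a1 (-0.53), Col1a2 (-0.42), Col3a1 (-0.48) and Lum (-0.63) had negative log2 fold changes, none of them past the threshold. The summed level of 5 erythroid markers was 92.8 to 268 after PBS and 76.9 to 163 after DT. Of the markers listed, Ly6g and Retnlg of neutrophils, Mlana and Tyr of melanocytes and Sox10 of Schwann cells were listed without a value. The highest fibroblast sum, mainly Dcn, was that of DT 6, the mouse with the highest values of 5 of the 7 growth arrest genes. The part of these cells in the differences of the 7 genes was not tested.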

How the data were processed

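Polyadenylated RNA from the gingival epithelium of 11 langerin-DTR mice (PBS, 5; DT, 6) was sequenced with a stranded kit per the labels. After trimming, the authors aligned reads with TopHat2 2.1.1, counted these per gene with htseq-count, left out genes with a low summed count and deposited counts divided by DESeq2 size factors, so each value is a normalized count. The methods name GRCm38 and the submitters' processing notes GRCm39, cutadapt 2.10, HTSeq 2.01 and DESeq2 1.36.0. Of the 55414 gene identifiers, 3281 are not in GENCODE M21. Coordinates here are those of GENCODE M21 and RefSeq on GRCm38 and are not the authors' own. The methods cite a guide for 3′ end libraries and the labels a whole-transcript kit, which bears on levels per length.

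Values up to 200 reads were whole multiples of a single read's value in 100% of cases (tolerance 0.1 read), which gave the depth, and counting errors cover counting only. DT was compared with PBS by limma 3.58.1 in R 4.3.3 on log2(normalized count + 1), a scale that understates changes of low genes. The variance prior followed the mean level, p-values of all 19170 genes were adjusted after Benjamini-Hochberg, calls were made below 0.1, and all mice entered without covariates. Simulated data with known changes were used to test the scripts. Relations within groups and level orders used exact permutation tests (threshold 0.05, list genes whose mean reached 10). The members and the gene lists were chosen with earlier results of these data known. Genes named are the 7, their paralogs, up to 3 genes in each direction past the threshold per list or else the gene of smallest p, and the 2 nearest genes of each. Alternatives were other pseudocounts, a filter on low means, TMM scaling, quantile normalization, array weights, blocks on the replicate numbers, other list scores and lengths, and leaving out mice.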

Additional observations from a re-analysis of the deposited data

How the results depend on the processing

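The number of genes past the threshold, 107, was 104 to 121 with other pseudocounts, a filter on low means or TMM scaling, 89 with quantile normalization, 189 with array weights and 1967 without PBS 3 and PBS 5, an alternative chosen after seeing the data. When single mice were left out it was 29 without PBS 1, 40 without PBS 2, 126 without PBS 3, 170 without PBS 4, 259 without PBS 5, 61 without DT 1, 82 without DT 2, 52 without DT 3, 50 without DT 4, 27 without DT 5 and 30 without DT 6, and between 4 and 6 of the 7 genes were past it. The labels do not state that equal replicate numbers pair mice. The deviations of same-numbered mice correlated with r between -0.23 and 0.32. Of 10 mice, 3 correlated best with the mouse of their own title number and 1 with that of their own library number. Such correlations cannot show whether mice were handled in pairs, so pairing is left undecided. With a replicate block on the title numbers 35 genes and 4 of the 7 were past the threshold, and with a replicate block on the library numbers 0 genes and 0 of the 7, with 1404 genes at an unadjusted p under 0.05 by limma. None of the 7 log2 fold changes changed sign under any alternative run. Of the 14 relations within groups, 4 were past the threshold as reported, 3 with the median as list score, 2 with TMM scaling, 2 with quantile normalization, 2 without PBS 3 and PBS 5, and between 2 and 4 without single mice. Btg2 and Gadd45g with the immediate early genes passed under every alternative run, and the cause of the loss of the others was not tested. The tests on counts planned with edgeR and DESeq2 were not run: the deposited values are normalized, and the reads recovered from them were used only for depth and counting error.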
